A study of Caenorhabditis elegans with 2 samples.

Results

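Of 100257 bins of 1 kb that cover chromosomes I to V and X of the nematode Caenorhabditis elegans, 166 carry the authors' GRTS mark without their GRH mark, and these GRTS-only bins are described here with the unmarked bins around them. The flanks are the 388 bins without either mark that start within 3000 bp of the start of a GRTS-only bin. The 554 bins were found from the mark columns and positions alone, so neither library's signal was used to choose them here. How the authors set the marks is not given in the sources used here, and they may have used related small RNA data. The signal is small RNA of hermaphrodites at the young adult stage, in 1 library labelled N2, the wild-type strain, and 1 labelled HRDE-1-coIP. The coIP protocol takes FLAG-StrepII-HRDE-1 out of a ground pool of whole adults with an anti-FLAG resin. The same protocol text stands beside the N2 library, so N2 may be total small RNA or a mock pull-down. Both libraries share the developmental stage, the sex and a cloning procedure that does not depend on a 5′ monophosphate, and no other allele or treatment is labelled. Each group is 1 library, so no difference below has a replicate check, and no test between libraries was made. In whole worms, fewer germline cells and less small RNA per cell cannot be told apart.

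HRDE-1 belongs to the Argonaute family and works in the nuclei of the germline. It carries secondary small interfering RNAs, which RNA-dependent RNA polymerases copy from target transcripts, and it acts on nascent RNA at the matching locus. At targets of this nuclear RNAi pathway, transcription is held down and histone H3 is methylated at lysine 9. Retrotransposons with long terminal repeats, which move through an RNA copy, are among its known targets in the worm. In the literature GRTS is short for transcriptional silencing by germline nuclear RNAi, and GRH for the heterochromatin it brings about. A GRTS-only bin is then one marked for silencing but not for the heterochromatin, though the file does not spell the marks out.

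The deposited value is a scaled coverage with a floor of 0.1 in each bin. The step of a single read was 0.232 in N2 and 0.169 in the coIP, and at these steps the bins sum to 2161943 and 4831998 read equivalents. Signal is given here as parts per 1000000 of the library's column sum (ppm). The log2 ratio of coIP over N2 was taken after adding 0.121 ppm, the smallest value, to both, which understates the change of weak bins. It is given for measured bins, those averaging at least 0.351 ppm over the libraries, which is the median of all values. Of all 100257 bins, 58910 were measured, among them 165 of the 166 GRTS-only bins and 343 of the 388 flank bins. Over all measured bins the median log2 ratio was 0.73, so ratios below are read against that value. Intervals are at 95%. Those of a median take bins as independent, which adjacent bins are not, and those of a ratio of reads cover counting error only.

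The median GRTS-only bin held several times the small RNA of the median flank bin, by a similar factor in both libraries, and the factor depends on how wide the flanks are. The median GRTS-only bin held 27.97 ppm in N2 (interval 20.8 to 36.7), with quartiles of 10.1 and 68.7 ppm and a highest value of 645 ppm. The median flank bin held 3.38 ppm in N2 (2.36 to 4.30), with quartiles of 0.644 and 18.8 ppm. In the coIP the medians were 74.9 ppm (56.1 to 98.3) for GRTS-only bins and 9.52 ppm (6.36 to 13.7) for flanks. The ratio of marked to flank medians was therefore 8.28 in N2 and 7.87 in the coIP. With flanks of 1 kb it was 3.64 and 2.91, and with flanks of 10 kb 25.6 and 35.5. The median of all bins was 0.273 ppm in N2 and 0.411 ppm in the coIP, so flanks also lay above the genome at large. No GRTS-only bin lacked reads in the coIP and 4 lacked them in N2, against 13 and 54 of the flank bins.

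The coIP over N2 ratio did not separate marked bins from their flanks. The median log2 ratio was 1.41 (1.32 to 1.54) over the measured GRTS-only bins and 1.49 (1.34 to 1.60) over the measured flanks, a difference of -0.07 whose bounds, from the ends of both intervals, were -0.29 and 0.21. Both medians lay above the 0.73 of all measured bins, and 149 GRTS-only and 275 flank bins exceeded it, where 50% of all measured bins do. At least 4-fold higher in the coIP were 33 GRTS-only bins, or 20.0%, against 19.4% of all measured bins, so the 4-fold count does not set them apart. At least 2-fold higher were 130 of the 165 measured GRTS-only bins, against 44.1% of all measured bins, and at least 8-fold higher 8, against 7.78%. Among flanks 96 were at least 4-fold higher, or 28.0%. At least 4-fold lower were 1 GRTS-only bin and 5 flank bins, against 9.04% of all measured bins. Scaled by the median of ratios, 12 of 164 measured GRTS-only bins and 53 of 333 flanks passed 4-fold, against 13.8% of all measured bins. With totals that leave out the 10 highest bins of either library, 10 of 166 and 39 of 353 did, against 11.0%. Under both scalings the GRTS-only share lay below that of all measured bins.

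**Figure D1:**
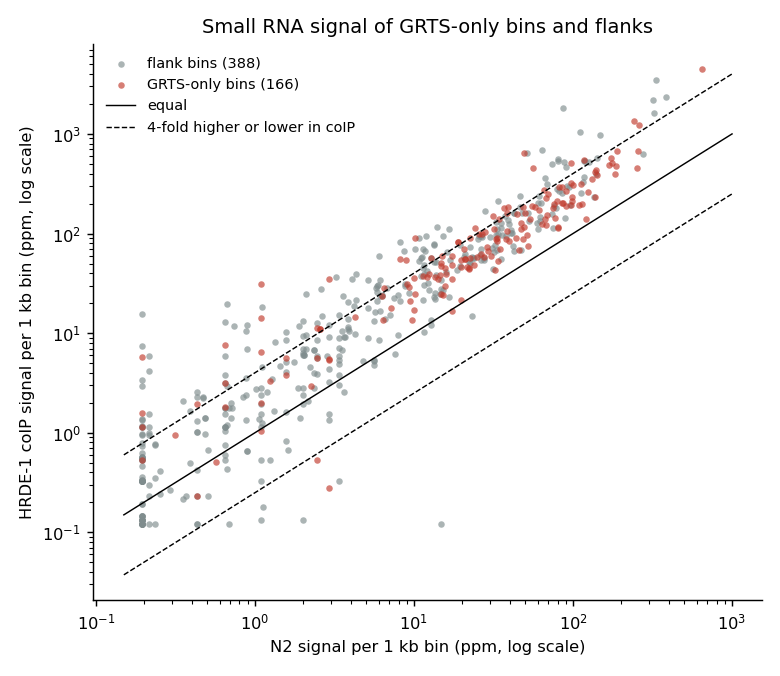
HRDE-1 coIP signal against N2 signal per 1 kb bin (ppm, both axes log) for 166 GRTS-only bins and 388 flank bins, with lines for equal signal and for a 4-fold difference in either direction. GRTS-only bins gather at high signal just above the equal line, and 2 lie under the lower 4-fold line, of which 1 passes as 4-fold lower once the 0.121 ppm are added.

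Marked bins spanned a narrower range of ratios than flanks or the genome at large. The quartiles of their log2 ratio were 1.06 and 1.85, against -0.74 and 1.70 over all measured bins. The SD was 0.86 over GRTS-only bins, 1.20 over flanks, 0.93 over GRH-only bins, 0.72 over the 25 bins with both marks and 1.97 over all measured bins. Among bins of at least 10 ppm in N2 the SD was 0.59 over 125 GRTS-only bins, 1.02 over 139 flank bins and 3.01 over 6138 bins of any kind. Over the same bins Pearson's r between the log2 signals of the libraries was 0.908, 0.825 and 0.308, and Spearman's rho 0.914, 0.869 and 0.283. These are descriptions across bins of the same library pair, where neighbours share transcripts and reads with several sites.

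The gap to other bins was widest where N2 signal was high. In bins of 10 to 100 ppm in N2, the median log2 ratio was 1.40 over 103 GRTS-only bins, 1.61 over 123 flanks, 1.93 over 92 GRH-only bins and 0.04 over all 5525 bins. In that class the coIP was lower by at least 4-fold in 1548 bins of any kind, or 28.0%. Among them were 0 GRTS-only bins, 0 GRH-only bins and 1 flank bin, so GRTS-only bins do not stand alone in this. At 100 ppm and more the medians were 1.46 over 22 GRTS-only bins, 2.10 over 16 flanks, 2.24 over 41 GRH-only bins and -2.24 over all 613 bins. From 1 to 10 ppm they were 1.48 over 30 GRTS-only bins, 1.38 over 125 flanks and 0.31 over 27240 bins of any kind. The classes are set on N2, which is also the denominator of the ratio. The GRTS-only median thus moved little over these 3 classes, while that of all bins fell from above 0 to far below it.

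With the floor subtracted, 0.871% of the N2 library lay in GRTS-only bins and 2.83% of the coIP library, a ratio of 3.25 (3.20 to 3.30). Flanks held 0.799% and 3.53%, a ratio of 4.41 (4.35 to 4.48), so the sums set flanks apart from marked bins while the intervals of the medians overlap. The sums rest on few bins. Without the single highest marked bin, at V 20465001, the GRTS-only ratio was 2.95 (2.90 to 3.00). Without the 5 flank bins of highest coIP signal, a choice made after the values were seen, the flank ratio was 3.63 (3.57 to 3.69). For GRH-only bins the shares were 1.62% and 7.97%, a ratio of 4.91, and for the 25 bins with both marks 0.240% and 0.854%, a ratio of 3.56. Of the marked coIP signal 40.0% lay in 10 bins and 16.0% in 1, against 29.9% and 7.53% of the marked N2 signal. Of the 20 highest GRTS-only bins of each library, 16 were the same.

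In the authors' deposited table, the p-value is 0.05 or less in 142 of the 166 GRTS-only bins, with the coIP share above the N2 share in 141 of them and below it in 1. In the authors' deposited table the same holds for 217 flank bins, 214 of them higher and 3 lower, and for 17.4% of all bins, 12.6% higher and 4.82% lower. GRH-only bins were much like GRTS-only bins, with 156 of 190 passing, 155 of them higher and 1 lower. The method behind these p-values is not given, and each side is 1 library. Median N2 signal was 27.97 ppm in GRTS-only bins, 3.38 ppm in flanks and 0.273 ppm in all bins. The passing shares are therefore not compared at like depth and do not rank the groups by ratio.

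Signal fell off within a few kilobases of a mark, and the median ratio did so far less. Of the flanks, 148 lay 1 kb from the nearest GRTS-only bin, 127 lay 2 kb and 113 lay 3 kb away. Their median N2 signal was 7.68, 2.34 and 1.13 ppm in that order, and their median coIP signal 25.7, 6.05 and 3.92 ppm. The median log2 ratio at these distances was 1.61 (1.47 to 1.80), 1.33 (1.21 to 1.69) and 1.34 (1.22 to 1.57), with overlapping intervals. Summed reads showed no fall over the flanks, with ratios of 4.29, 4.27 and 5.27 (5.05 to 5.50) in that order. From 4 to 9 kb the summed ratios lay between 3.16 and 4.86 without a steady fall, with 4.62 at 9 kb. At 10 kb the summed ratio was 1.60 (1.50 to 1.71), where the highest bin held 179 ppm in N2 and the mean was 5.24 ppm. Just outside the flanks, at 4 kb, the 106 bins had medians of 0.908 ppm in N2 and 1.75 ppm in the coIP and a log2 ratio of 1.32 (1.05 to 1.69). From 5 to 10 kb the medians ran from 0.644 to 1.09 ppm in N2 and from 0.944 to 1.34 ppm in the coIP, still above those of all bins. There the median log2 ratio ran from 0.91 to 1.19, with an SD of 1.50 to 2.01 against 0.98 at 1 kb.

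**Figure D2:**
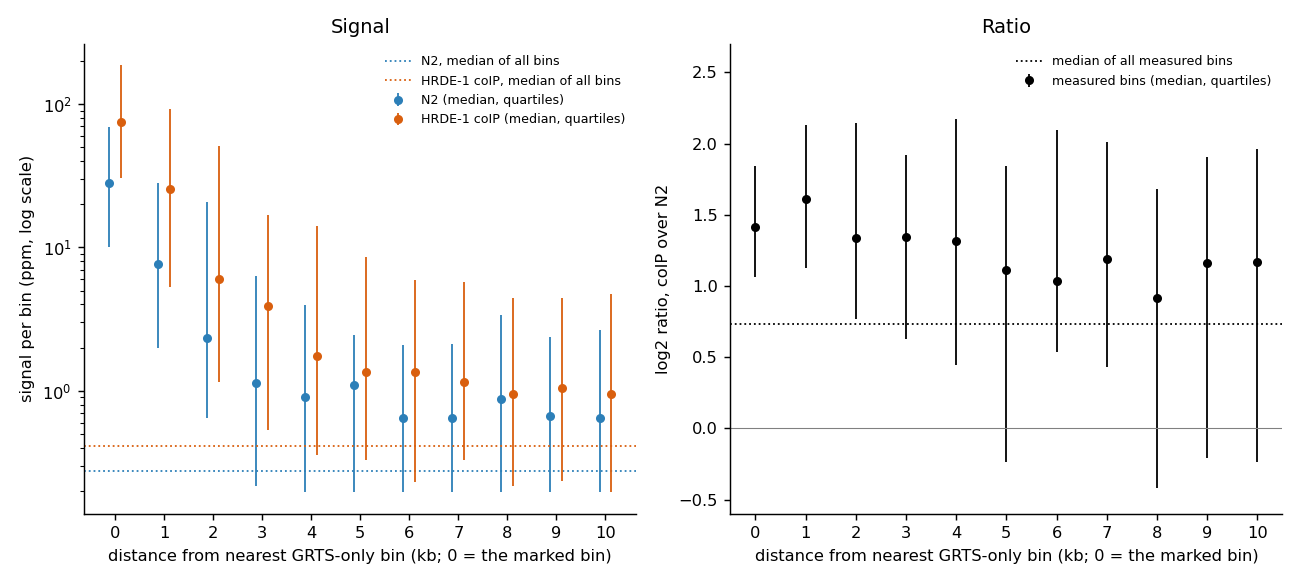
Left, median signal per bin with quartiles (ppm, log axis) in N2 and the HRDE-1 coIP for GRTS-only bins (distance 0) and for bins 1 to 10 kb from the nearest one, with dotted lines at the medians of all bins. Right, the log2 ratio of coIP over N2 over the measured bins, also as median and quartiles, with a dotted line at 0.73. Signal drops from 27.97 to 1.13 ppm in N2 between 0 and 3 kb, while the median ratio stays between 1.33 and 1.61.

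The sides of the marked bins had similar medians. Flank bins before a run, at lower positions, had medians of 2.92 ppm in N2 and 9.05 ppm in the coIP over 188 bins, and those after a run 2.91 and 7.91 ppm over 180 bins. The file gives no strand, so before and after do not mean upstream and downstream of a gene. The other 20 flank bins lay equally near to marked bins on both sides and were higher, at 14.4 ppm in N2 and 38.9 ppm in the coIP, with a median log2 ratio of 1.38. In particular, 13 unmarked bins filled a gap of exactly 1 bin between marked runs. They ranged from 0.195 to 117 ppm in N2 and from 1.15 to 367 ppm in the coIP, with a median log2 ratio of 1.33 that lies inside the interval of the marked median.

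The edge of the mark was often not an edge of the signal. The 89 runs have 178 ends, of which 17 meet a GRH bin and 161 an unmarked bin. At those 161 ends the signal of the next bin was at least 4-fold lower in 64 cases in N2 and in 56 in the coIP. It stayed within 4-fold in 88 and 94 cases and was at least 4-fold higher in 9 and 11. In all, the unmarked neighbour was the higher bin at 47 ends in N2 and at 50 in the coIP. The median step out of a run was -1.25 in N2 and -0.92 in the coIP on the log2 scale. The 13 unmarked bins that fill a gap between runs enter these counts once for the run on either side. Repeated loci on V, described below, are also counted in full.

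Adjacent GRTS-only bins formed 89 runs, of which 58 were single bins, 18 were pairs, 3 had 3 bins and 4 had 4 bins. Above that stood 2 runs of 5 bins, 1 of 7, 2 of 8 and 1 of 14. Signal per bin did not simply grow with run length. The median over runs of the mean N2 signal was 24.0 ppm for single bins, 51.0 ppm for pairs, 75.5 ppm for runs of 3 to 4 and 37.2 ppm for runs of 5 or more. The same order held in the coIP, with 70.8, 140, 156 and 113 ppm. Single bins spanned the widest range, from 0.195 to 645 ppm in N2 and from 0.278 to 4457 ppm in the coIP. The 6 longest runs stayed between 15.3 and 78.0 ppm in N2 and between 46.6 and 189 ppm in the coIP.

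The ratio hardly moved with run length. The median log2 ratio per bin was 1.44 (1.31 to 1.78) for single bins, 1.38 (1.10 to 1.75) for pairs, 1.37 (1.04 to 1.60) for runs of 3 to 4 and 1.42 (1.25 to 1.77) for runs of 5 or more. Its SD was 1.17 for single bins and between 0.54 and 0.74 for the other lengths. Against 19.4% of all measured bins, at least 4-fold higher in the coIP were 17 of 58 single bins (29.3%), 5 of 36 bins in pairs (13.9%), 2 of 25 in runs of 3 to 4 (8.00%) and 9 of 46 measured ones in runs of 5 or more (19.6%). Summed reads gave a ratio of 4.25 for single bins, or 3.52 without V 20465001, against 2.88, 2.37 and 2.88 for the longer classes. Over the 31 runs of 2 or more bins, the SD of the log2 ratio was 0.58 within runs and 0.44 between run means. The SD of the log2 coIP signal was 1.86 within runs and 1.59 between run means. An SD between run means still holds part of the spread within runs.

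**Figure D3:**
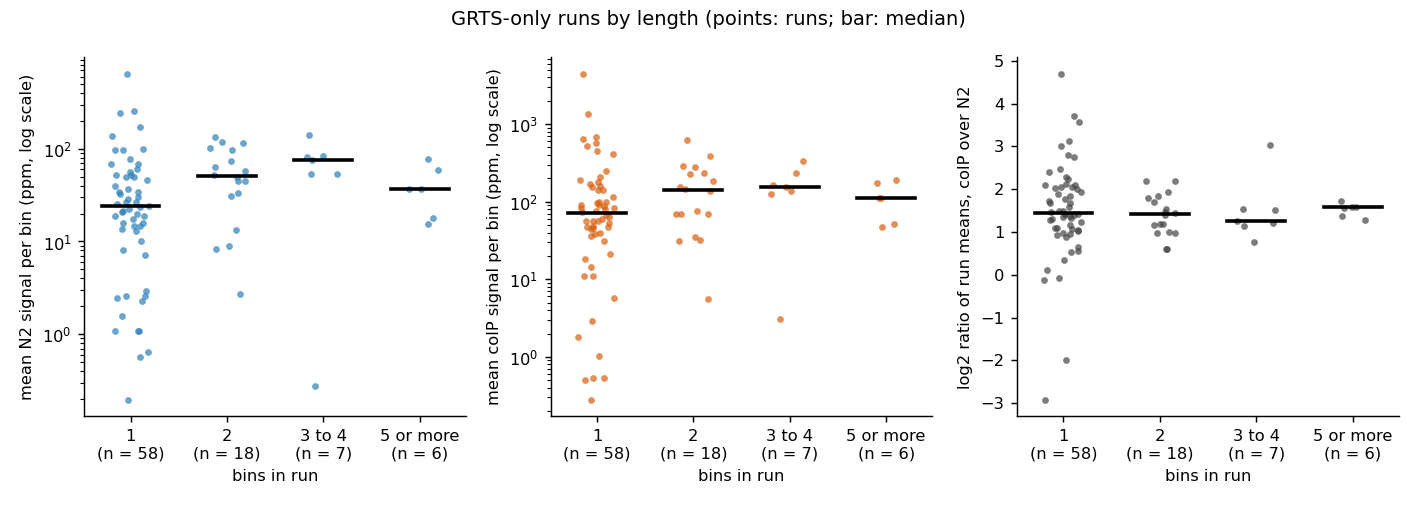
Mean N2 signal per bin, mean coIP signal per bin (both ppm, log axes) and the log2 ratio of these means for the 89 GRTS-only runs, grouped by number of bins in the run. Points are runs, spread sideways to be seen, and bars are medians. The single-bin runs cover the whole range, and the 6 runs of 5 or more bins lie close together.

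Position within a run gave no single pattern. Interior bins, those with at least 2 marked bins on each side, exist only in the 6 runs of 5 or more. Over those runs the medians were 28.0 ppm in N2 and 92.5 ppm in the coIP for 12 edge bins, 38.7 and 86.6 ppm for the 12 bins next to an edge, and 15.0 and 50.4 ppm for 23 interior bins, of which 10 are in the 14-bin run. In N2 the interval of the edge median, 17.3 to 44.6 ppm, overlaps that of the interior, 2.91 to 29.1 ppm. Run by run, the mean of the interior lay under that of the edges in 3 of 6 runs in N2 and in 5 of 6 in the coIP. The second 8-bin run is among those 5 at a rounded 96.8 ppm in both places. The 8-bin runs are near copies of each other, described below, and hold 8 of the other 13 interior bins. The median log2 ratio was 1.33 at edges, 1.51 next to them and 1.43 inside, with overlapping intervals.

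The longest run, V 5187001 to 5201000, held strong and nearly empty parts under 1 unbroken mark. From its first bin, N2 held 38.3, 57.6, 31.9, 37.8, 38.3 and 2.46 ppm, and the coIP 162, 184, 110, 87.1, 106 and 11.4 ppm. These first 6 bins had 452 N2 and 3225 coIP read equivalents, a ratio of 3.19 (2.89 to 3.53). The other 8 bins lay between 0.195 and 2.91 ppm in N2 and between 0.230 and 34.7 ppm in the coIP, and 15.1 N2 read equivalents stood behind them all. Their ratio was 7.67 with a counting interval of 4.58 to 13.95, and bin 12 alone gave 34.7 of their 53.8 ppm in the coIP. Without bin 12 the ratio was 4.40 (2.23 to 9.99), which overlaps that of the first 6 bins. The bin that was not measured, V 5193001 to 5194000, is the first of these 8, at 0.430 ppm in N2 and 0.230 ppm in the coIP.

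A run of 4 bins, V 5182001 to 5186000, lies just before it, parted by 1 unmarked bin of 35.1 ppm in N2 and 127 ppm in the coIP. It held 568 ppm in N2 and 1349 ppm in the coIP, a ratio of 2.36 (2.22 to 2.51), and ranked 3 of all runs in summed coIP signal. Both runs lie near the position known for Cer8, and the run at IV 915001 near that for Cer3, elements of the retrotransposon class named above. The build of the file was not matched to an annotation, so these identities are not certain.

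In the run of 7 bins, IV 915001 to 922000, N2 fell from 44.6 ppm in bin 1 over 33.3, 14.7 and 12.4 to 9.26 ppm in bin 5, then rose to 188 ppm in bin 6 and 114 ppm in bin 7. The coIP went through 156, 83.8, 50.4, 39.6 and 28.7 ppm to 676 and 197 ppm, so both libraries drew the same outline. The pair of unmarked bins before the run held 113 and 115 ppm in N2 and 253 and 328 ppm in the coIP, while the bin after it held 3.38 and 5.43 ppm. The run's ratio was 2.94 (2.75 to 3.16), and its log2 ratio per bin ran from 0.79 to 1.85.

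The 5-bin run II 2516001 to 2521000 was a trough between unmarked peaks. Its N2 signal was 24.8, 0.644, 2.91, 14.3 and 47.0 ppm and its coIP signal 58.8, 7.63, 5.44, 34.9 and 126 ppm. The unmarked bin before it held 51.2 ppm in N2 and 649 ppm in the coIP, and the one after it 141 and 572 ppm. The run had a ratio of 2.60 (2.24 to 3.05). The mean of its 6 flanks was 39.6 ppm in N2 and 241 ppm in the coIP, with a log2 ratio of 2.60 against 1.37 for the means of the run. Bin by bin the run's log2 ratio went from 0.88 to 3.34. The 3.34 belongs to bin 2, with 0.990 N2 read equivalents, and the other bins reached at most 1.42.

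The other 5-bin run, V 17568001 to 17573000, was the reverse, a peak with a clear start. Bins before it were at 0.195 ppm in N2, that is, without a read, and at 0.133 to 0.339 ppm in the coIP. N2 then rose through 17.3 and 44.1 ppm to 132 and 187 ppm and fell to 9.72 ppm, and the coIP through 16.8 and 89.4 ppm to 352 and 474 ppm and back to 13.5 ppm. Its ratio was 2.41 (2.24 to 2.60), with log2 ratios of -0.04 and 0.47 in the end bins and 1.02, 1.41 and 1.34 between them. Here the ratio was lower at the ends than in the middle.

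**Figure D4:**
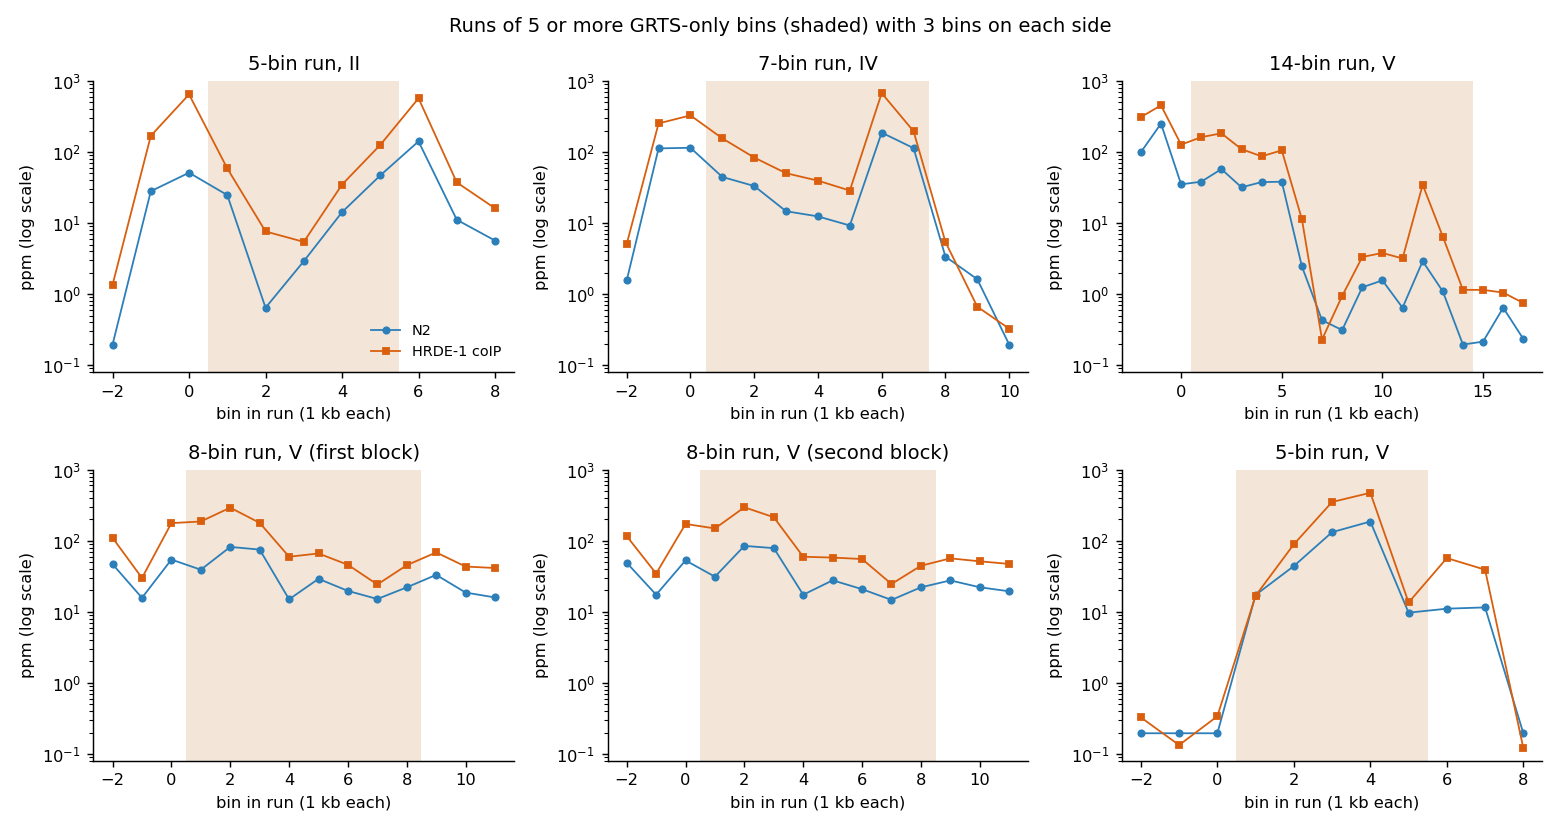
N2 and HRDE-1 coIP signal (ppm, log axis) bin by bin through the 6 runs of 5 or more GRTS-only bins (shaded) and the 3 bins on each side, counted from the first marked bin as 1. The curves of both libraries follow each other through peaks and troughs, the 5-bin run of II is lowest at bins 2 and 3, and the 14-bin run drops from bin 6 on.

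The runs of 8 bins, V 8829001 to 8837000 and V 8871001 to 8879000, looked like copies of each other, 42 kb apart. Each belongs to a block of 14 GRTS-only bins, and 13 positions are marked in both blocks at that shift. At these 13 positions the second block held 0.797 to 1.16 times the N2 signal and 0.798 to 1.20 times the coIP signal of the first, and the log2 ratios differed by at most 0.21. The blocks summed to 497 and 498 ppm in N2 and to 1276 and 1302 ppm in the coIP. In both, bin 3 of the block carries the GRTS and GRH marks together and so interrupts the run. The first bins of the 8-bin runs held 39.1 and 31.2 ppm in N2 and 187 and 149 ppm in the coIP, the largest difference between the blocks. Reads with several sites may have been shared between the blocks, so their 28 marked bins cannot be taken as separate measurements. Leaving out the second block left the marked median in its interval.

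A mirrored pattern stood at V 14039001 to 14055000, with 4 single marked bins 5 kb apart. The outer bins, at 14039001 and 14054001, each held 2.58 ppm in N2 and 11.0 ppm in the coIP. The inner bins, at 14044001 and 14049001, each held 18.9 ppm in N2, with 81.7 and 81.8 ppm in the coIP. Read inward from both ends, 7 of 8 bin pairs matched within 5% in both libraries, unmarked bins included, and the innermost pair did not, at 0.293 and 1.19 ppm in N2. The N2 reads in all 4 marked bins were fractional, so reads may be shared here too. Over all GRTS-only bins with N2 reads, 37.7% held whole reads (to 0.0055 in deposited units), against 53.9% of all bins with N2 reads. The GRTS-only share was also lower at 1 to 10 ppm in N2 (56.7% against 71.1%) and at 10 to 100 ppm (32.0% against 52.0%). It was higher under 1 ppm (42.9% against 35.4%) and at 100 ppm and more (36.4% against 29.9%). In log2 ratio the median was 1.49 over the 61 GRTS-only bins with whole N2 reads and 1.38 over the 100 with fractions.

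The runs with the largest coIP signal were mostly on V. The highest was the single bin V 20465001 to 20466000, with 645 ppm in N2 and 4457 ppm in the coIP, a ratio of 6.86 (6.50 to 7.24). Its 5 flank bins averaged 29.1 and 388 ppm, and most of that coIP signal lay in the unmarked bin 3 kb after it, with 86.8 ppm in N2 and 1801 ppm in the coIP. The single bin V 5754001 to 5755000 held 243 and 1351 ppm, a ratio of 5.52 (5.06 to 6.05), with flanks averaging 11.0 and 57.5 ppm. The pair I 10487001 to 10489000 held 268 and 1233 ppm, a ratio of 4.58 (4.20 to 4.98). Nearly all of it lay in the first bin, with 261 and 1219 ppm, next to an unmarked bin of 317 and 2199 ppm. The pair V 20297001 to 20299000, which touches a GRH bin, held 236 and 765 ppm, a ratio of 3.22 (2.94 to 3.54). The others among the 10 highest are the runs of 4, 5, 7, 8 and 14 bins given above.

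Of the 89 runs, 87 had a coIP share above their N2 share, for 81 the counting interval lay above 1 and for 1 below it. The median run ratio was 2.76, with quartiles of 2.16 and 4.01. Among runs with at least 30 read equivalents in both libraries together, the largest ratios mostly rested on few N2 reads. The run of 3 bins V 5485001 to 5488000 had 0.517 N2 and 43.9 coIP read equivalents, which gives a counting interval of 3.35 to 795. The single bins I 11296001 and V 5482001 had 1.98 N2 read equivalents each, with ratios of 34.6 (9.31 to 285) and 15.6 (4.11 to 130). More firmly based were II 438001, with 49.3 ppm in N2 and 647 ppm in the coIP and a ratio of 13.1 (10.8 to 16.0), and IV 1136001, with 10.2 and 89.9 ppm and a ratio of 8.93 (5.82 to 14.4).

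The smallest ratios in that group lay above 1 with library totals as the scale. They were 1.08 (0.752 to 1.58) at IV 8324001, 1.44 (1.16 to 1.79) at II 1486001, 1.47 (1.18 to 1.87) at IV 12507001, and 1.51 (1.29 to 1.78) at both V 8845001 and V 8887001. The last pair are the matching ends of the copied blocks. With totals that leave out the 10 highest bins of either library, all 5 fell under 1, IV 8324001 to 0.667 (0.464 to 0.976) and the others to between 0.887 and 0.934, with counting intervals that include 1. Scaled by the median of ratios, IV 8324001 fell to 0.785 (0.546 to 1.15). The 1 GRTS-only bin at least 4-fold lower in the coIP was IV 526001 to 527000, with 5.98 N2 and 0.769 coIP read equivalents, or 2.91 and 0.278 ppm. Just short of that, with a log2 ratio of -1.98, was V 16102001 to 16103000, with 4.99 N2 and 2.01 coIP read equivalents. The bin 2 kb before IV 526001, a flank, held 14.7 ppm in N2 and no coIP read, and the marked bin 2 kb after IV 526001 held 255 and 679 ppm.

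Set against their own flanks, 65 of the 89 runs had the higher mean in N2 and 62 in the coIP, and 60 in both. The median run held 1.69 times the mean of its own flanks in N2 and 1.72 times in the coIP. At least 4-fold above their flanks were 28 runs in N2 and 27 in the coIP, and at least 4-fold below were 6 and 7. The highest contrasts were 72.7-fold in N2, at IV 528001, and 93.6-fold in the coIP, at the pair V 12646001 to 12648000, which held means of 102 and 232 ppm against 1.79 and 2.48 ppm in its flanks. Flanks had the higher ratio for 48 runs, and the median difference in log2 ratio, flanks minus run, was 0.05. By run length the median contrast in the coIP was 1.57 for single bins, 2.65 for pairs, 1.62 for runs of 3 to 4 and 1.98 for runs of 5 or more.

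In 5 runs the flanks exceeded the run most in mean coIP signal. The pair II 14144001 to 14146000 held means of 8.86 ppm in N2 and 30.8 ppm in the coIP against flank means of 87.3 and 505 ppm, carried by an unmarked bin of 387 and 2351 ppm 2 kb before it, beyond a GRH bin. The single bin II 4211001 held 0.644 and 1.80 ppm, or 0.990 N2 and 8.23 coIP read equivalents, next to an unmarked bin of 148 and 978 ppm. At V 15164001 the marked bin held 56.0 and 454 ppm, a ratio of 8.08 (6.74 to 9.77), and the unmarked bin after it 331 and 3508 ppm, the highest coIP value of any flank. At V 8482001 the marked bin held 61.0 and 171 ppm, and an unmarked bin 2 kb on 324 and 1619 ppm. The fifth is the trough on II described above.

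**Figure D5:**
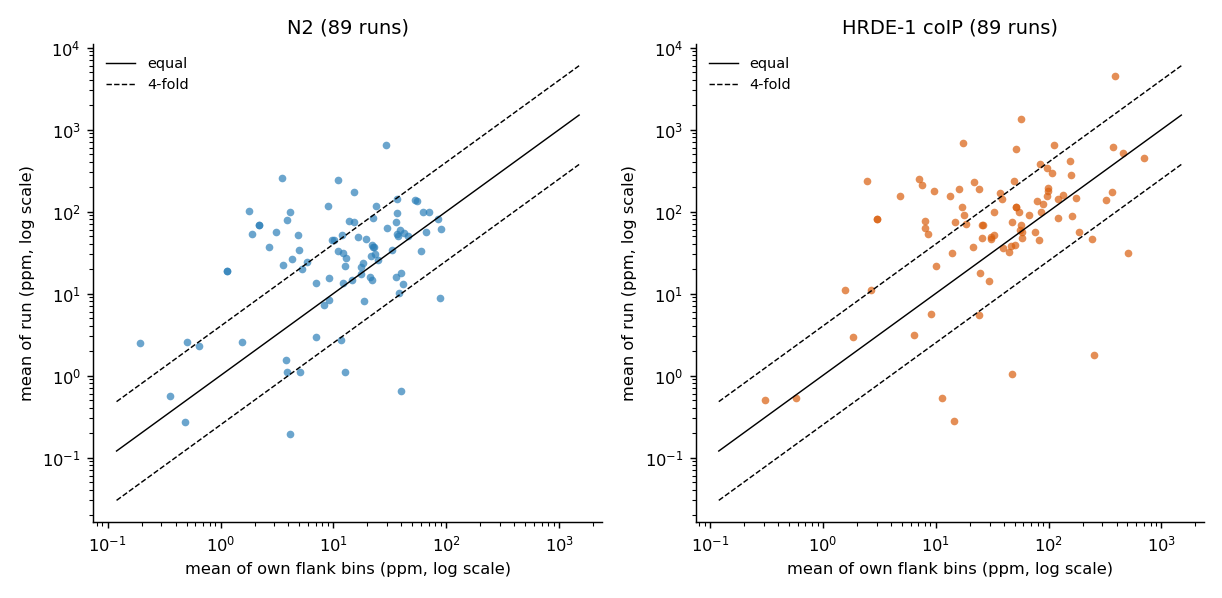
Mean signal of each of the 89 GRTS-only runs against the mean of its own flank bins within 3 kb (ppm, log axes), in N2 and in the HRDE-1 coIP, with lines for equal means and for a 4-fold difference. Of the runs, 65 in N2 and 62 in the coIP lie above the line of equal means.

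Chromosome V held 79 of the 166 GRTS-only bins and 35 of the 89 runs, or 3.78 marked bins per 1000 bins. The density was 1.89 on IV, 1.51 on II, 1.39 on I and 0.725 on III, and none of the 17719 bins of X was GRTS-only. Among GRTS-only bins the median log2 ratio was 1.32 on I (21 bins), 1.41 on II (23), 1.19 on III (10), 1.47 on IV (33) and 1.45 on V (78 measured), with overlapping intervals. Without the runs of V it was 1.40 over 87 bins. In the outer 30% at each end of the chromosomes lay 124 marked bins, and 42 lay in the centres, with medians of 1.46 (1.37 to 1.66) and 1.24 (1.09 to 1.40). Over all measured bins the medians were 0.95 in the arms and 0.35 in the centres. The step was smaller for marked bins, with the copied blocks counted in full. Those blocks supply 28 of the 42 centre bins, and the mirrored bins of V lie there too. The centre median of marked bins and its interval thus rest mostly on bins that are not separate measurements. For flanks the medians were 1.62 (1.47 to 1.74) in arms and 1.22 (1.05 to 1.33) in centres, where the intervals do not overlap.

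Marked bins with a GRH bin nearby had higher median signal, but with overlapping intervals. The 30 GRTS-only bins with a GRH bin within 3 kb had medians of 51.3 ppm (17.4 to 82.0) in N2 and 164 ppm (55.9 to 249) in the coIP. Over the other 136 they were 24.5 ppm (19.7 to 33.3) and 64.6 ppm (53.8 to 87.1). Matching bins of both copied blocks on V are among the 30. The median log2 ratios were 1.56 (1.24 to 1.83) with a GRH bin nearby and 1.40 (1.29 to 1.50) without. Of the runs, 17 had a GRH bin within 3 kb, and 15 touched one. GRH-only bins as a whole had a median log2 ratio of 1.91 (1.74 to 2.06), above that of GRTS-only bins, with no overlap of the intervals, at a like N2 median of 27.8 ppm. Of their 188 measured bins 84 were at least 4-fold higher, or 44.7%, against the 20.0% of GRTS-only bins.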

How the data were processed

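The deposited signal is a coverage per 1 kb bin and library, scaled by the authors, with a floor of 0.1. Bowtie 0.12.7 is named in the submitters' processing notes. For the build, the filters on reads, the handling of multiply mapping reads and the scaling total, no value is given in the sources used here. The last bin of V ends at 20920000 and that of I at 15060000, before the last genes annotated in WBcel235 (20922732 and 15072426). The build was therefore not matched, no coordinate was converted, and positions are those of the file. The p-value per bin is deposited by the authors, by a method not given.

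Columns were divided by their sums (Python 3.11.15, numpy 2.4.6, pandas 2.3.3, scipy 1.17.1). The value of 1 read was inferred from the steps between low values, so read equivalents are estimates. Ratios of reads carry exact Clopper-Pearson intervals on rounded read equivalents, and medians carry binomial order-statistic intervals. The fold rule of 4 stands in for a test. Runs named are those of 5 or more bins, the 10 of largest coIP signal, the 5 of largest and smallest ratio with at least 30 read equivalents, the 5 most exceeded by their flanks, and marked bins at least 4-fold lower. The mirrored bins and other single bins were added after the values were seen. Members, lists and settings were chosen with earlier results of these data known. Counting was tested on simulated data.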

Additional observations from a re-analysis of the deposited data

How the results depend on the processing

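Of 135 recomputed summary values, 95 stayed within the interval of the reported value (counts within 1.5 times) and 40 did not. Some of the 95 could not move, because the setting does not enter the value. Examples are the summed ratios under another pseudocount or minimum, and the marked median under other flank widths. Marked over flank signal likewise cannot change with the scaling of a library. The count of 95 is therefore no measure of stability. Scaling moved the most. With the median of ratios, the median log2 ratio was 0.96 for marked bins and 1.05 for flanks, 12 and 53 bins were at least 4-fold higher, and summed signal gave 2.36 and 3.21, while all measured bins had a median of 0.19. With totals without the 10 highest bins of either library these were 0.75 and 0.81, 10 and 39, and 2.00 and 2.72, against 0.10. The flank median was 1.19 with a pseudocount 10 times larger, 1.33 with no minimum, 1.69 at 10 times the minimum, 1.61 with the floor subtracted and 1.64 at 10 ppm of N2 or more. For all measured bins the median was 0.33 with the larger pseudocount, -0.12 with no minimum, 1.17 at 10 times the minimum and 0.89 with the floor subtracted. At 10 times the minimum the marked median was 1.44, and 29 of 149 marked bins were at least 4-fold higher. There 32.7% of all measured bins passed that fold. Flanks within 1000 bp gave a median of 1.61, 44 higher bins, a summed ratio of 4.29 and marked over flank signal of 3.64 in N2 and 2.91 in the coIP. Flanks within 10000 bp gave 1.30, 227, 4.11, 25.6 and 35.5. The flank sum gave 4.24 without flanks near GRH bins, and runs with no GRH bin near gave 2.96 for marked bins and 4.25 for flanks. With 1 bin per run 21 marked bins were higher and the summed ratio was 3.77. Without the run of largest coIP signal the sums gave 2.95 and 4.25, and with whole N2 reads 3.04 and 4.18. At 2-fold 130 and 257 bins were higher, against 44.1% of all measured bins, and at 8-fold 8 and 26, against 7.78%. Merging runs across 1 bin gave 73 runs in place of 89, and through bins with both marks 86. Of 25 named runs, 5 fell under 1 with totals without the 10 highest bins: IV 8324001, whose interval held 1 before, to 0.667, II 1486001 to 0.887, IV 12507001 to 0.908, V 8845001 to 0.933 and V 8887001 to 0.934. With the median of ratios, 1 did, IV 8324001 to 0.785. Whole reads, the N2 minimum of 10 ppm, the left-out V block and the settings for named runs were chosen after seeing the data. No cause was tested beyond each setting's construction. No paired analysis was possible because the groups hold a single library apiece. Ratios of bins with under 3 N2 reads are limited by depth.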

Other observations

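Left out of the flanks were 27 GRH bins that start within 3 kb of a GRTS-only bin, 13 of them with both marks. They had medians of 33.8 ppm in N2 and 150 ppm in the coIP, well above the unmarked flanks. The median log2 ratio of the 26 measured ones was 1.70 (1.46 to 2.20), and 8 were at least 4-fold higher, or 30.8%. At the 17 run ends that meet a GRH bin, that bin was the higher one in 8 cases in N2 and in 7 in the coIP, and the median step was -0.36 and -0.20 on the log2 scale.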
